A study of Homo sapiens with 12 samples.

Results

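Cancer-testis antigens were read on 130 of the 47230 probes of the Illumina HumanHT-12 v4 BeadChip, which carry 72 of the 20046 gene symbols annotated on it. The probes were chosen by symbol, as those whose annotated name begins with GAGE, PAGE, XAGE, MAGEA, MAGEB, MAGEC, SSX, CTAG, CT45 or CT47. The families themselves were selected on measured values of these arrays, namely their detection across the 4 groups, so that pattern is given below as a description with no test. The literal prefixes also took 10 probes of 6 CTAGE genes, which share only letters with the CTAG family, and 1 probe of SSX2IP, a partner of SSX2 and not a member of its family. Without these, 119 probes and 65 symbols remained.

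RNA came from HLY (HLY-1) and SUDHL2 (SUDHL-2), established cell lines of diffuse large B-cell lymphoma, a cancer of mature B cells. Each line was cultured in 1% oxygen (hypoxia) or 21% oxygen (normoxia) with CO2, and the labels name no genetic change in either line. The 4 groups were HLY hypoxia, HLY normoxia, SUDHL2 hypoxia and SUDHL2 normoxia, with 3 arrays each, which the series design calls biological replicates. The length of hypoxia for these arrays was not given in the sources used here, and each line stands for the tumour of a single patient.

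Cancer-testis antigens are proteins made mainly by male germ cells, and in some cases the placenta, that many tumours also make. Most of their genes lie in multicopy families on the X chromosome and are kept silent in other tissues by DNA methylation at CpG sites of their promoters. Because the testis shows few antigens to T cells, the proteins can be seen as foreign when a tumour makes them, and several have been targets of vaccines and T-cell therapies.

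The promoter sequences of 6 members are shown. PAGE2B was the single member called between groups of like arrays, at a limma adjusted p under 0.05. The others stand for families whose levels ran in opposite orders over the groups (GAGE12C, SSX1 and MAGEC1 against MAGEA6 and CT45A1). The sequences are RefSeq windows of build GRCh38.p14, 250 bases before to 50 after the annotated start. They are written 5′ to 3′ on the strand of the gene, with each CG, the dinucleotide that DNA methylation marks, in capitals. GAGE12C is at chrX:49531927-49532226 (plus strand), PAGE2B at chrX:55074780-55075079 (plus), SSX1 at chrX:48255142-48255441 (plus), MAGEC1 at chrX:141903644-141903943 (plus), MAGEA6 at chrX:152769640-152769939 (minus) and CT45A1 at chrX:135713389-135713688 (plus).
GAGE12C: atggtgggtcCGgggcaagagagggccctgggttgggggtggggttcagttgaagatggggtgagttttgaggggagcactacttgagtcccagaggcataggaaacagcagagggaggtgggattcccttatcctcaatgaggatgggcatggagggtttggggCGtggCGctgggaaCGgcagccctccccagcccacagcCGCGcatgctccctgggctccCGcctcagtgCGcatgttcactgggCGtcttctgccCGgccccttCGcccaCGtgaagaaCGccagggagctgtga
PAGE2B: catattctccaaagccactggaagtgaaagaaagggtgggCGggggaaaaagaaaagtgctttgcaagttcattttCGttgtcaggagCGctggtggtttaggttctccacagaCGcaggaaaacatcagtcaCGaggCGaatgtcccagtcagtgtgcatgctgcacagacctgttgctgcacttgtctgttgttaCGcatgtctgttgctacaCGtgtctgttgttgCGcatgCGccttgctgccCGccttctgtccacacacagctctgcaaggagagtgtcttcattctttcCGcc
SSX1: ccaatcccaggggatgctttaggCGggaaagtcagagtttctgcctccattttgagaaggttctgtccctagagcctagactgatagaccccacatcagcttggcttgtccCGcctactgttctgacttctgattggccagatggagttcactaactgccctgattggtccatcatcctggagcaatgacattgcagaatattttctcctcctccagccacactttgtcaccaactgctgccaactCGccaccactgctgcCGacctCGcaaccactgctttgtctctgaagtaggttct
MAGEC1: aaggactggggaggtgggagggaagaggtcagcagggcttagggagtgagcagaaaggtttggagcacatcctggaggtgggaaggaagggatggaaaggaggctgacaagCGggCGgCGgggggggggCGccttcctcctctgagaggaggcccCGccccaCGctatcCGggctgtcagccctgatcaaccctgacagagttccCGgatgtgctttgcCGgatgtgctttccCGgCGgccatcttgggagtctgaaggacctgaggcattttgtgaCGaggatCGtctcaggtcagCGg
MAGEA6: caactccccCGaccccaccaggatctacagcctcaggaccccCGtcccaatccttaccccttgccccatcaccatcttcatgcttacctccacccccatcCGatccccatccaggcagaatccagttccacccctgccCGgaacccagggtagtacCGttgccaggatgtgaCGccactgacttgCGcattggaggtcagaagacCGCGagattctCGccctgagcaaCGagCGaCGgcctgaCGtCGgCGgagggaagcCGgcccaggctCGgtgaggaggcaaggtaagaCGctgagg
CT45A1: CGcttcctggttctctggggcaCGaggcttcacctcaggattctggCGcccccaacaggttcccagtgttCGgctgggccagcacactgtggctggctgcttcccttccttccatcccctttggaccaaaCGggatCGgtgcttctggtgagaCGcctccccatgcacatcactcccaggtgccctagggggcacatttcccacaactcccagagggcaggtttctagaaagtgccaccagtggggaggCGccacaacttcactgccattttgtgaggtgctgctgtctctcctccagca

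A window was listed for 53 of the 72 symbols, 67 windows in all. The windows shown hold 13 CG in GAGE12C, 12 in PAGE2B, 5 in SSX1, 14 in MAGEC1, 19 in MAGEA6 and 8 in CT45A1, against a median of 14 over the 35116 windows of all genes. The GAGE12C window was identical, base for base, to those of GAGE12D, GAGE12E, GAGE12F, GAGE12H, GAGE12J and GAGE2A, and MAGEA6 was identical to MAGEA3. GAGE10 matched GAGE12C at 66.6% of the 299 bases compared without gaps.

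Short runs of letters were searched on both strands, counting overlapping matches, and were picked after the windows had been read. GCGCATG was found in 10 of 10 GAGE windows, 5 of 7 PAGE, 5 of 8 XAGE and 1 of 7 SSX windows, against 4.43% of the windows of all genes. CGGATGTG, which holds the GGA core bound by ETS factors, was found in 14 of 16 MAGEA, 2 of 10 MAGEB, 2 of 3 MAGEC and 2 of 7 SSX windows, against 0.666% of all. GCGCATG was thus common to GAGE, whose probes were all detected in HLY hypoxia, and to XAGE, which was detected in no group. CGGATGTG was held by MAGEC1, MAGEC2 and MAGEB2 as well as by MAGEA12, MAGEA2 and MAGEA9B, which were on in HLY normoxia and SUDHL2 hypoxia only. The hypoxia response core, ACGTG or GCGTG, gave 2 matches in PAGE2B, 3 in GAGE12C, 1 in MAGEC1 and none in SSX1, MAGEA6 or CT45A1. It was held by 38 of the 67 member windows (56.7%), against 48.4% of all windows. A CACGTG counts here as 2 matches, 1 on each strand.

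Whole arrays did not group by their line labels. The median correlation over kept probes was 0.984 between HLY hypoxia and SUDHL2 normoxia arrays and 0.976 between SUDHL2 hypoxia and HLY normoxia arrays, but 0.791 between hypoxia and normoxia arrays labelled HLY and 0.791 between those labelled SUDHL2. Within groups it was 0.982 to 0.991. Groups are therefore named by their labels throughout, and what a line label stands for on each array could not be settled from the files. The arrays had medians of 111 to 149 in intensity and detected between 12322 and 14925 probes at a p under 0.01. Of the B-cell markers, CD79B, MS4A1, BLK and CD22 were on in HLY normoxia and SUDHL2 hypoxia and in neither other group. CD79A, part of the B-cell receptor, read 138, 168 and 161 in HLY hypoxia and 3760, 4778 and 3765 in HLY normoxia, and 3847, 3857 and 3366 in SUDHL2 hypoxia against 156, 316 and 152 in SUDHL2 normoxia. CD74, the MHC class II chaperone, was the only B-cell marker on in all 4 groups. Its level ran the other way, at 5043, 4595 and 5296 in HLY hypoxia and 2475, 3005 and 2491 in HLY normoxia. It read 2468, 2606 and 2162 in SUDHL2 hypoxia and 6372, 4452 and 3567 in SUDHL2 normoxia. Of the 7 B-cell markers with a probe, 1 was on in no group. None of 6 T-cell and none of 5 myeloid markers with a probe was on in any group, and the T-cell marker CD2 is given beside PAGE2B.

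A probe was called on in a group where the deposited detection p, which sets it against the negative control probes of its array, was under 0.01 on all 3 arrays. By this rule 52 of the 130 probes (40.0%) were on in HLY hypoxia, against 24 (18.5%) in HLY normoxia, and 25 (19.2%) were on in SUDHL2 hypoxia, against 49 (37.7%) in SUDHL2 normoxia. Of all probes on the array, 28.0% were on in HLY hypoxia, 26.9% in HLY normoxia, 25.1% in SUDHL2 hypoxia and 27.3% in SUDHL2 normoxia. These shares only describe the selection. In all, 62 probes of 38 genes were on in at least 1 group, 6 were detected on some array without being on, and 62 were detected on no array. The probe nearest the threshold from inside was CTAG1A in SUDHL2 hypoxia, with a highest detection p of 0.00909, and the nearest from outside was another CTAG1A probe in the same group, at 0.01039.

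The on probes fell into a few patterns. A set of 35 probes (26.9% of members, 3.03% of all probes) was on in HLY hypoxia and SUDHL2 normoxia and in neither HLY normoxia nor SUDHL2 hypoxia. The opposite pattern, on in HLY normoxia and SUDHL2 hypoxia only, was shown by 10 probes (7.69% of members, 1.92% of all probes). A further 13 were on in all 4 groups, 2 in HLY hypoxia alone, and 1 each in 2 other combinations. No member probe was on in both hypoxia groups and in neither normoxia group (0.0995% of all probes), or the reverse (0.169% of all probes).

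**Figure D1:**
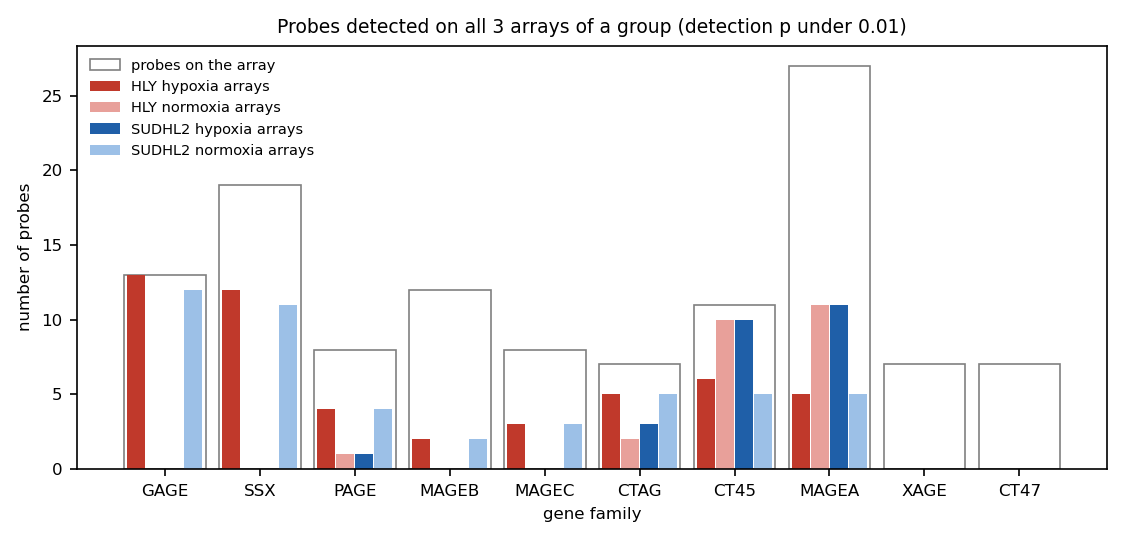
Number of probes of each family detected on all 3 arrays of a group (filled bars, by group) within the number of probes on the array (outlined bars). GAGE had 13 of 13 probes on in HLY hypoxia, 0 in HLY normoxia, 0 in SUDHL2 hypoxia and 12 in SUDHL2 normoxia, while CT45 had 6, 10, 10 and 5 and XAGE and CT47 had none in any group.

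GAGE is a family of short acidic proteins of unsettled function. All 13 probes, for 12 gene symbols, were on in HLY hypoxia and none in HLY normoxia, and none were on in SUDHL2 hypoxia against 12 in SUDHL2 normoxia. The exception was GAGE10, which was detected on 2 of the 3 SUDHL2 normoxia arrays. GAGE4 read 12640, 16750 and 13460 in HLY hypoxia and 105, 124 and 109 in HLY normoxia. It read 130, 116 and 100 in SUDHL2 hypoxia and 15830, 11160 and 11410 in SUDHL2 normoxia. GAGE4 was thus bright on 6 arrays and near background on the other 6, with no overlap under either label.

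Where a group had no detected array, the fold was bounded by the lowest signal among probes detected on each of its arrays, and folds are on the background-corrected scale. On that scale GAGE4 was at least 229-fold higher in HLY hypoxia than in HLY normoxia and at least 199-fold lower in SUDHL2 hypoxia than in SUDHL2 normoxia. These bounds depend on the background correction, and the deposited means of GAGE4 differed by 127-fold under the HLY label and by 111-fold under the SUDHL2 label. Over the 12 GAGE probes with such a bound, it ran from 1.46-fold (GAGE10) to 229-fold under the HLY label, with a median of 139-fold, and from 1.03-fold to 199-fold under the SUDHL2 label, with a median of 122-fold. The GAGE copies are nearly identical in sequence, so the symbols cannot be taken as separate measurements.

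SSX proteins are nuclear repressors whose genes are known from the SS18-SSX fusions of synovial sarcoma. Of 19 SSX probes, 12 were on in HLY hypoxia and 0 in HLY normoxia, and 0 were on in SUDHL2 hypoxia and 11 in SUDHL2 normoxia. SSX1 read 2450, 4553 and 2454 in HLY hypoxia and 123, 101 and 102 in HLY normoxia, and 120, 105 and 101 in SUDHL2 hypoxia against 3072, 3047 and 2177 in SUDHL2 normoxia. The groups did not overlap under either label, and the bounds were at least 42.0-fold higher for HLY and at least 44.7-fold lower for SUDHL2. SSX2, SSX3, SSX4, SSX4B and SSX5 were on in the same 2 groups, and SSX7 was on in none. Of the 22 genes on with over 1 probe, 10 also had a probe that was on in no group, among them SSX1, SSX2, SSX4, SSX4B and SSX5.

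PAGE genes are relatives of GAGE, and 4 of 8 PAGE probes were on in HLY hypoxia. PAGE5 read 8522, 13080 and 9955 in HLY hypoxia and 112, 107 and 105 in HLY normoxia, and 136, 113 and 103 in SUDHL2 hypoxia against 9928, 8419 and 7399 in SUDHL2 normoxia. A further PAGE5 probe disagreed with it in the dim groups, where it was on at 752, 875 and 599 in HLY normoxia and 937, 609 and 539 in SUDHL2 hypoxia. It read 6296, 9534 and 7554 in HLY hypoxia and 7144, 4910 and 5184 in SUDHL2 normoxia. These 2 probes ordered the groups alike, and the remaining PAGE5 probe was detected on no array. PAGE1 was dimmer, at 258, 381 and 322 in HLY hypoxia and 284, 272 and 289 in SUDHL2 normoxia, and its other arrays lay between 104 and 114. PAGE2, PAGE3 and PAGE4 were on in no group.

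MAGE proteins share a domain that binds ubiquitin ligases, and their X-linked subfamilies did not move as a unit. MAGEB2, the only MAGEB gene on, read 1195, 1886 and 1191 in HLY hypoxia and 110, 109 and 97 in HLY normoxia. It read 130, 110 and 97 in SUDHL2 hypoxia and 1471, 1146 and 915 in SUDHL2 normoxia. MAGEC1 followed the same order, with 902, 2035 and 1155 in HLY hypoxia and 97, 104 and 101 in HLY normoxia, and 106, 100 and 97 in SUDHL2 hypoxia against 1534, 1013 and 723 in SUDHL2 normoxia. MAGEC2, a partner of the co-repressor TRIM28, was on in HLY hypoxia at 203, 314 and 183 and in SUDHL2 normoxia at 227, 197 and 178. Its other probe was on in no group. MAGEB2, MAGEC1 and MAGEC2 were on in the same groups as most GAGE probes.

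MAGEA ran the other way. All 11 MAGEA probes that were on anywhere were on in HLY normoxia and in SUDHL2 hypoxia, and 5 of them were on in HLY hypoxia and in SUDHL2 normoxia too. MAGEA1, the first human tumour antigen cloned through T cells, read 184, 291 and 207 in HLY hypoxia and 3661, 3655 and 2746 in HLY normoxia, and 5188, 3234 and 3278 in SUDHL2 hypoxia against 200, 314 and 165 in SUDHL2 normoxia. On the log2 scale it was lower by 5.22 in HLY hypoxia than in HLY normoxia and higher by 5.10 in SUDHL2 hypoxia than in SUDHL2 normoxia. MAGEA3 and MAGEA6, whose promoter windows are identical, were on in all 4 groups, though the other MAGEA3 probe was detected on no array. MAGEA6 read 546, 666 and 455 in HLY hypoxia and 1614, 1809 and 1675 in HLY normoxia, and 2526, 1967 and 1726 in SUDHL2 hypoxia against 462, 471 and 383 in SUDHL2 normoxia. MAGEA12, MAGEA2 and MAGEA9B completed the set, and MAGEA4, MAGEA8, MAGEA9, MAGEA10 and MAGEA11 were on in no group.

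CT45, a family of near-identical nuclear proteins, shared the order of MAGEA. Of 11 CT45 probes, 6 were on in HLY hypoxia and 10 in HLY normoxia, and 10 in SUDHL2 hypoxia and 5 in SUDHL2 normoxia. CT45A3 read 690, 1442 and 754 in HLY hypoxia and 5380, 6904 and 4767 in HLY normoxia. It read 7300, 5221 and 4280 in SUDHL2 hypoxia and 692, 799 and 427 in SUDHL2 normoxia. CT45A3 was therefore detected on all 12 arrays, at 2 levels that did not overlap under either label.

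CTAG1A, a copy of the gene for NY-ESO-1, and CTAG2, for LAGE-1, were detected more widely, but their levels were in the order of GAGE. The 2 probes of CTAG1B, in the same family, were detected on no array. Whether the probes tell CTAG1A from CTAG1B was not checked. CTAG2 read 2778, 3769 and 3010 in HLY hypoxia and 448, 445 and 388 in HLY normoxia, and 596, 495 and 388 in SUDHL2 hypoxia against 3160, 2961 and 2632 in SUDHL2 normoxia. Its brightest probe was 6.83-fold higher in HLY hypoxia than in HLY normoxia and 6.54-fold lower in SUDHL2 hypoxia than in SUDHL2 normoxia. XAGE, with 7 probes, and CT47, with 7 probes, were detected on none of the 12 arrays. Of the genes taken by letters alone, CTAGE6 was on in HLY hypoxia and SUDHL2 normoxia, and SSX2IP lay within 109 to 221 on every array.

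**Figure D2:**
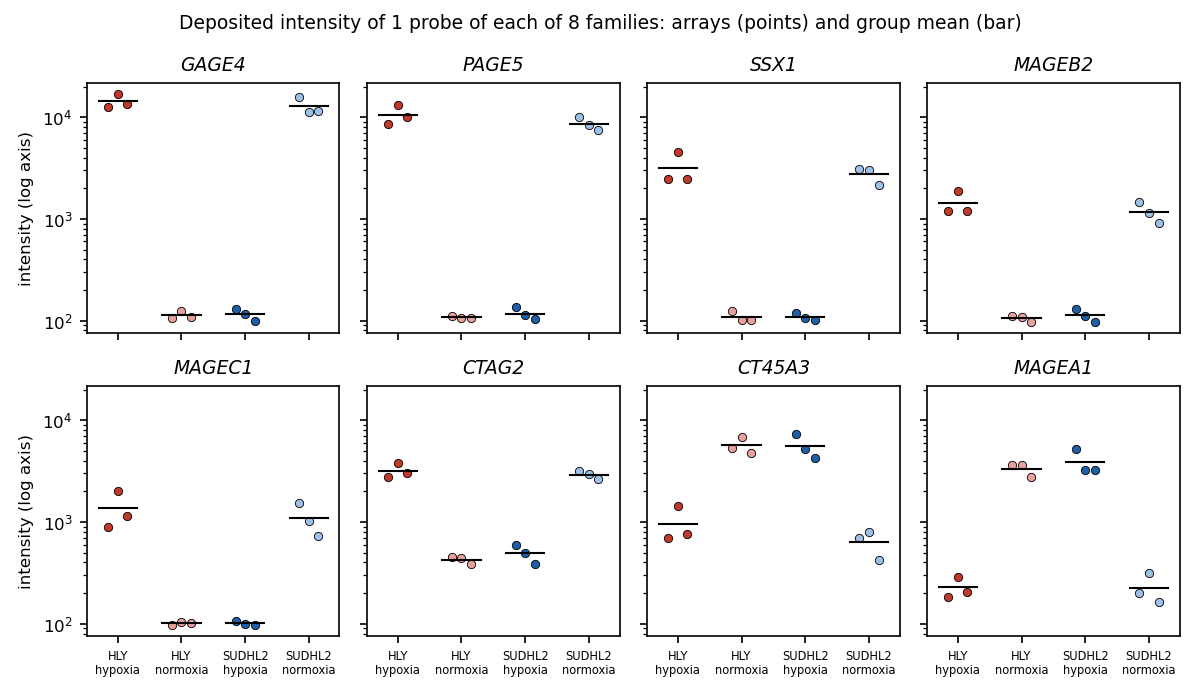
Deposited intensity (log axis) of 1 probe from each of 8 families on each array (points), with the mean of the 3 arrays of a group (bar). GAGE4 lies between 11160 and 16750 on HLY hypoxia and SUDHL2 normoxia arrays and between 100 and 130 on the others, and MAGEA1 and CT45A3 show the opposite order.

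The families lie in blocks along the X chromosome in the RefSeq order: MAGEB, most of SSX, GAGE, PAGE and XAGE with SSX2 and SSX7 among them, CT47, CT45, MAGEC, MAGEA and CTAG. Of the 63 genes placed, neighbours did not always share a pattern. MAGEC1 and MAGEC2, on in HLY hypoxia and SUDHL2 normoxia, lie between the CT45 and MAGEA blocks. There 4 of 5 CT45 genes and 6 of 13 MAGEA genes were on in HLY normoxia and SUDHL2 hypoxia. Some of these, such as CT45A3 and MAGEA1, were on in the other groups too, and the rest were on in no group. XAGE2 and XAGE1B, which were detected nowhere, lie between PAGE1 and SSX2, both on in HLY hypoxia.

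**Figure D3:**
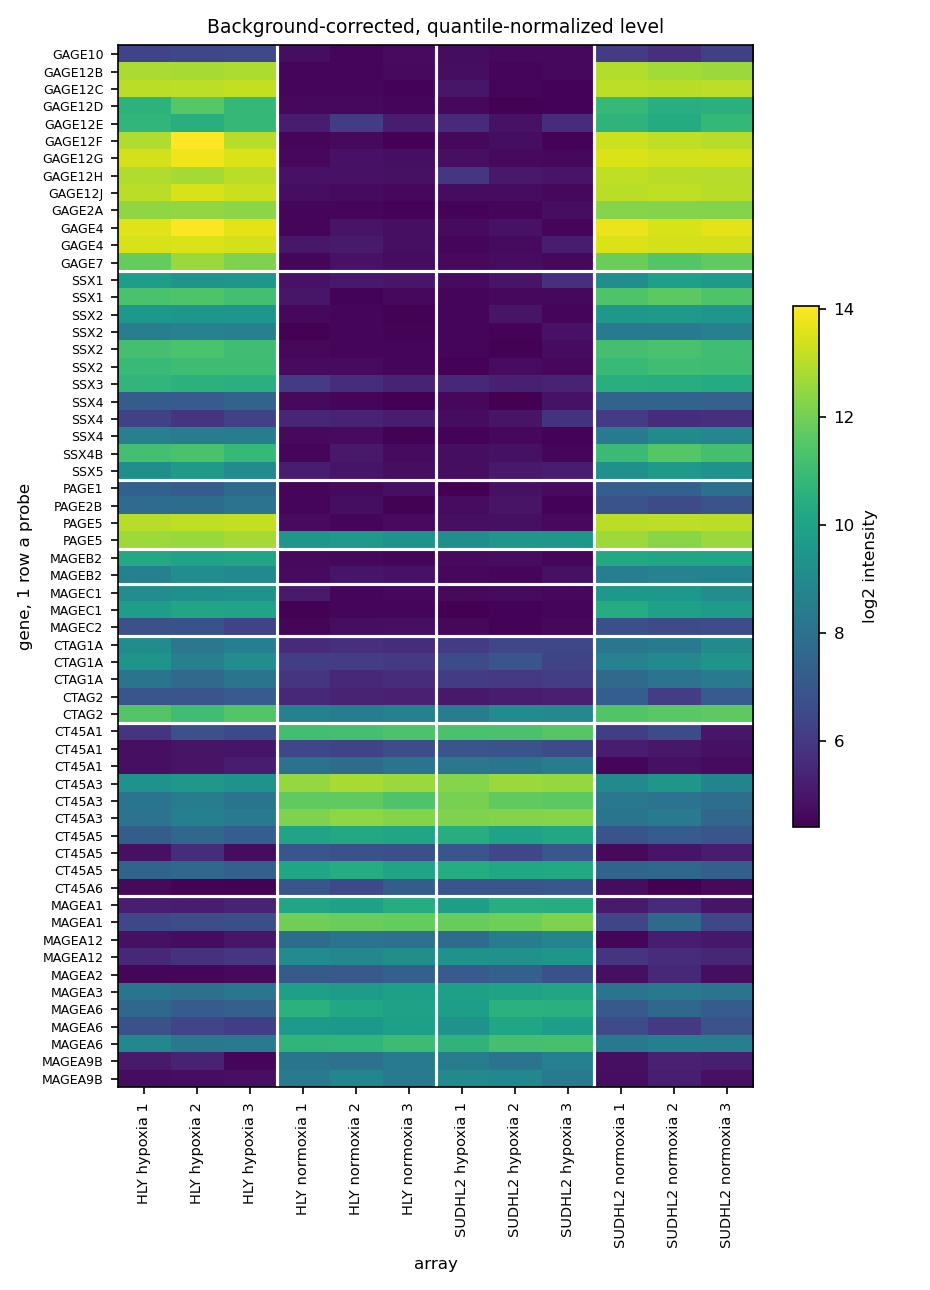
Background-corrected, quantile-normalized log2 intensity (colour) of the 60 probes of the named families on in at least 1 group, by array (CTAGE6 and SSX2IP are not drawn), with families set apart by white lines. In HLY hypoxia and SUDHL2 normoxia the GAGE, SSX, PAGE, MAGEB, MAGEC and CTAG rows are bright, and in HLY normoxia and SUDHL2 hypoxia the CT45 and MAGEA rows are.

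To set these differences beside those of other genes, probes were compared with limma at a Benjamini-Hochberg adjusted p of 0.05 over the 16288 probes detected on at least 3 arrays, of which 63 were members. Under the HLY label, 40 of the 63 were higher and 21 lower in hypoxia than in normoxia, where 31.1% of all tested probes were higher and 30.3% lower. Under the SUDHL2 label, 21 were higher and 40 lower in hypoxia, where 30.8% of all tested probes were higher and 31.0% lower. The values of the members' arrays did not overlap for 61 of the 63 under the HLY label and for 59 under the SUDHL2 label, against 68.4% and 63.2% of all tested probes. The selection used these contrasts, and most of the members passed the detection filter through the groups in which they were bright. Nothing was read from the counts.

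Hypoxia and normoxia arrays were also compared in ways other than within a line label. These comparisons too were set up with earlier results of the arrays known. The first was the average response, the mean of the hypoxia arrays of both labels against that of the normoxia arrays of both. Of the 63 members tested, 1 was higher and 0 were lower, against 3.32% of all tested probes higher and 5.45% lower. At an unadjusted p under 0.05 there were 3. The median member differed by 0.054 on the log2 scale, against 0.014 over all tested probes. For 40 of the 63, at least 1 side of this average set background against background, since no array of SUDHL2 hypoxia and HLY normoxia, or none of HLY hypoxia and SUDHL2 normoxia, detected the probe. Of the 23 detected in both pairs, 0 were called by limma, with 1 at an unadjusted p under 0.05, and the 95% interval lay within 1 on the log2 scale for 23.

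The second compared groups of like arrays. Between HLY hypoxia and SUDHL2 normoxia, 1 of 63 members was higher and 0 lower (0.903% and 1.25% of all tested probes), with 5 at an unadjusted p under 0.05 and a median of 0.03. Between SUDHL2 hypoxia and HLY normoxia, 0 were higher and 0 lower by limma (4.16% and 8.77% of all tested probes), again with 5 at an unadjusted p under 0.05, and the median was 0.07. A probe below background in both groups can show no difference, and no array of either group detected 9 of the 63 in the first pair and 31 of the 63 in the second. Among the others, the 95% interval lay within 1 on the log2 scale for 52 of 54 between HLY hypoxia and SUDHL2 normoxia and for 30 of 32 between SUDHL2 hypoxia and HLY normoxia. Member arrays did not overlap for 6 and 8 probes, against 20.7% and 33.1% of all tested probes. The line label and the oxygen level both change in each of these 2 comparisons, so they cannot be told apart there. The line labels also go against the arrays.

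PAGE2B, a PAGE gene of undescribed function, was the member called. Its only probe read 304, 519 and 380 in HLY hypoxia and 239, 198 and 189 in SUDHL2 normoxia, with means of 401 ± 109 and 208.7 ± 26.7 (SD, n = 3 each). It read 132, 117 and 95 in SUDHL2 hypoxia and 105, 118 and 94 in HLY normoxia, where no array detected it. HLY hypoxia was higher than SUDHL2 normoxia by 1.10 ± 0.15 (SE) on the log2 scale, 2.15-fold, with a limma adjusted p of 0.0025, and the arrays did not overlap. The average response was 0.61 ± 0.11 (SE), with a limma adjusted p of 0.0039. That average came from the arrays labelled HLY hypoxia and SUDHL2 normoxia, since SUDHL2 hypoxia and HLY normoxia differed by 0.11 ± 0.15 (SE), with a limma adjusted p of 0.684 and both below background. Both calls were kept in 19 of 19 alternatives, with adjusted p of 0.000666 to 0.0186 and 0.00267 to 0.0182. An exact permutation test of 3 arrays against 3 cannot go below 0.1. CD2, the only T-cell marker tested, was also called in these comparisons. It was higher by 0.91 in HLY hypoxia than in SUDHL2 normoxia and by 0.64 in the average response, with limma adjusted p of 0.0282 and 0.013. CD2 read 180, 252 and 155 in HLY hypoxia and 146, 135 and 124 in SUDHL2 normoxia, and its part in the PAGE2B values was not tested.

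The relatives of PAGE2B in the same pair of groups did not pass the test. PAGE5 differed by 0.14 ± 0.14 (SE) on the probe that was on in all 4 groups. It differed by 0.03 ± 0.11 (SE) on the probe on in HLY hypoxia and SUDHL2 normoxia only. PAGE1 differed by -0.11 ± 0.19 (SE), and the 13 GAGE probes ran from -0.14 to 0.49 between HLY hypoxia and SUDHL2 normoxia. GAGE7 had the largest GAGE value, 0.49 ± 0.19 (SE), with a limma adjusted p of 0.231, and GAGE10 had 0.41 ± 0.14 (SE), with an adjusted p of 0.181. Between SUDHL2 hypoxia and HLY normoxia, the largest was a CTAG1A probe at 195, 159 and 146 in SUDHL2 hypoxia and 141, 153 and 133 in HLY normoxia, 0.71 ± 0.23 (SE), with a limma adjusted p of 0.0594. No HLY normoxia array detected this probe, and its bound was at least 1.37-fold higher in SUDHL2 hypoxia. The other CTAG1A probes had 0.51 and 0.40 on the log2 scale. The CTAG1A probe passed the threshold without HLY hypoxia replicate 1 or 2, SUDHL2 hypoxia replicate 1 or SUDHL2 normoxia replicate 3, each left out alone, with adjusted p between 0.0355 and 0.0452.

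**Figure D4:**
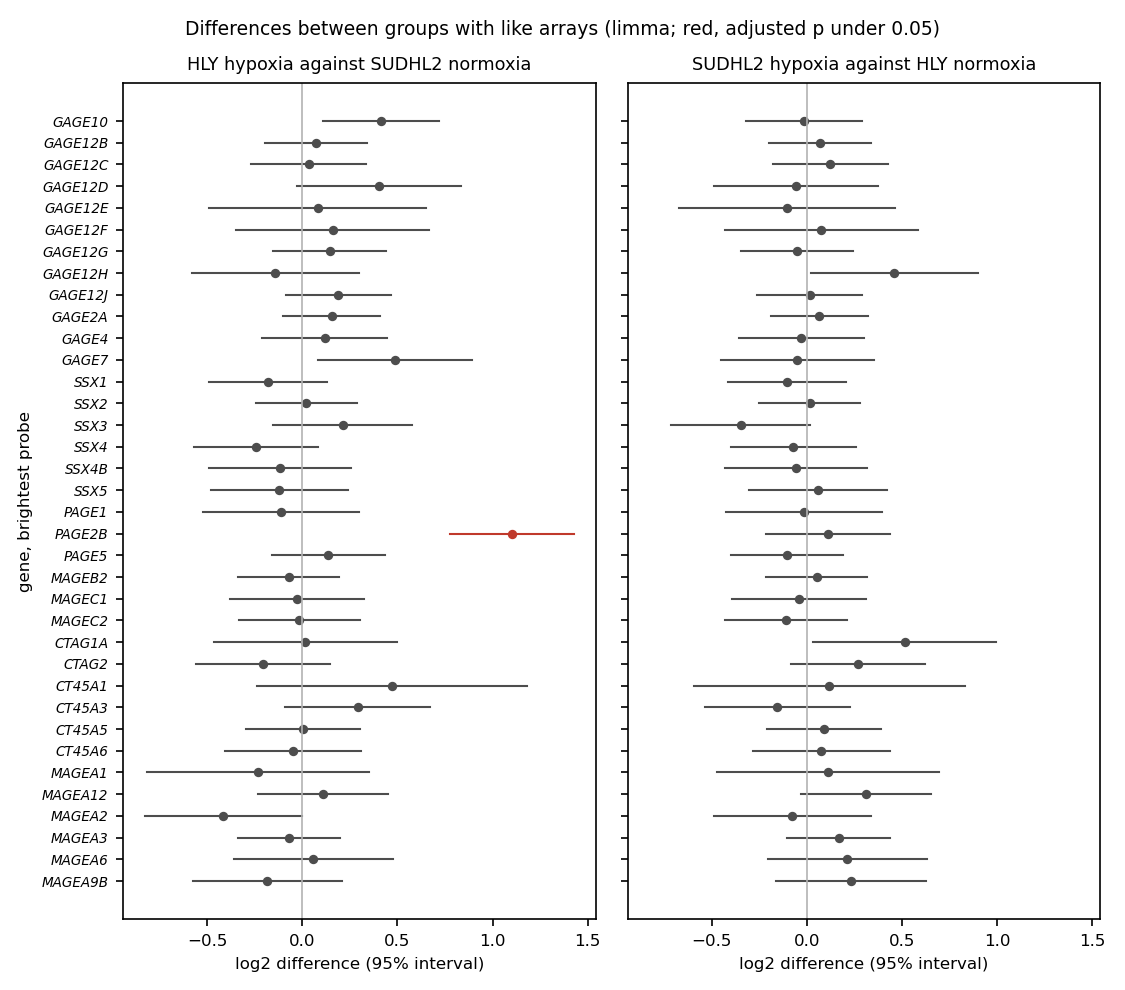
Log2 difference (point) and 95% interval (line) from limma for the brightest probe of each of 36 genes, HLY hypoxia minus SUDHL2 normoxia (left) and SUDHL2 hypoxia minus HLY normoxia (right). PAGE2B, at 1.10 in the left panel (red), is the only gene with an adjusted p under 0.05.

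Genes outside these families that were listed as further cancer-testis genes ran both ways. The list holds SSX2IP, which the prefixes had also taken, and the counts below include it. Of 60 listed, 54 had a probe and 21 were on in at least 1 group, with 18 on in HLY hypoxia, 15 in HLY normoxia, 13 in SUDHL2 hypoxia and 17 in SUDHL2 normoxia. Of these 21, 10 were on in all 4 groups, 5 in HLY hypoxia and SUDHL2 normoxia only, and 3 in HLY normoxia and SUDHL2 hypoxia only. Under the HLY label 9 of the 22 tested were higher and 8 lower, against 31.1% and 30.3% of all tested probes. TEX19, which guards germ cells against retrotransposons in mice, read 3069, 4234 and 3207 in HLY hypoxia and 156, 187 and 141 in HLY normoxia, and 233, 155 and 136 in SUDHL2 hypoxia against 3590, 2707 and 2608 in SUDHL2 normoxia. SPANXN3, of a sperm protein family, was at least 6.55-fold higher in HLY hypoxia than in HLY normoxia and at least 5.76-fold lower in SUDHL2 hypoxia than in SUDHL2 normoxia. DDX43, an RNA helicase, ran the other way, at least 3.14-fold lower in HLY hypoxia than in HLY normoxia and at least 2.05-fold higher in SUDHL2 hypoxia than in SUDHL2 normoxia. In the average response 0 of the 22 tested were higher and 2 were lower, where 3.32% of all tested probes were higher and 5.45% lower. The 2 were TDRD1 at -0.67 and PBK at -0.47 on the log2 scale, with limma adjusted p of 0.0273 and 0.00945. These 2 were named after their values were seen.

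Male germ cell genes outside the antigen families were mostly not detected. Of 12 listed, 11 had a probe and only DAZL, a germ-cell RNA-binding protein, was on. DAZL read 678, 1300 and 548 in HLY hypoxia and 106, 108 and 109 in HLY normoxia, and 142, 99 and 93 in SUDHL2 hypoxia against 858, 535 and 462 in SUDHL2 normoxia. Of 9 stromal and epithelial markers, 7 were on in no group. EPCAM, an epithelial adhesion protein, was on in HLY normoxia and SUDHL2 hypoxia. PECAM1, an adhesion protein of endothelium and some blood cells, was on in HLY hypoxia and SUDHL2 normoxia. The part of other cells in the members' values was not tested. Less RNA per cell and fewer cells that make it cannot be told apart in bulk RNA.

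**Figure D5:**
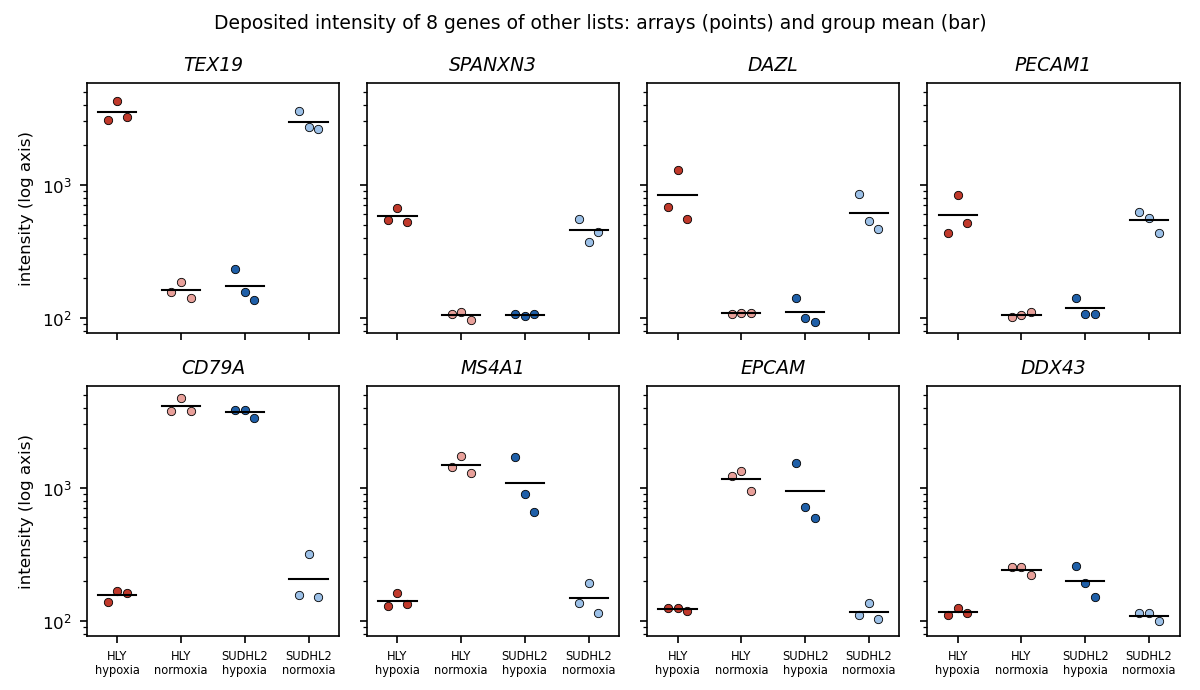
Deposited intensity (log axis) of 8 genes of other lists on each array (points), with the mean of the 3 arrays of a group (bar). TEX19, SPANXN3, DAZL and PECAM1 are bright in HLY hypoxia and SUDHL2 normoxia, and CD79A, MS4A1, EPCAM and DDX43 in HLY normoxia and SUDHL2 hypoxia.

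Genes of DNA methylation and silencing, the machinery that keeps cancer-testis genes off in normal tissue, were mostly on in every group. Of 32 listed, 28 had a probe, 18 were on in all 4 groups, 3 in HLY hypoxia and SUDHL2 normoxia only, and 7 in none. EZH2, the methyltransferase of Polycomb repression, read 404, 611 and 467 in HLY hypoxia and 1149, 1335 and 1125 in HLY normoxia, and 1855, 1077 and 893 in SUDHL2 hypoxia against 453, 488 and 322 in SUDHL2 normoxia. On the log2 scale EZH2 differed by -1.98 under the HLY label and by 1.92 under the SUDHL2 label. SETDB1, a histone methyltransferase, had 1.40 and -1.74, its partner TRIM28 had 1.57 and -0.91, and UHRF2, a reader of modified DNA, had 1.38 and -2.58 in the same order of labels. EZH2, SETDB1, TRIM28 and UHRF2, which ran in opposite directions under the labels, had the largest spreads between group means on this list. Of the 23 tested, 6 were higher and 7 lower under the HLY label, against 31.1% and 30.3% of all tested probes. Under the SUDHL2 label 7 were higher and 8 lower, against 30.8% and 31.0%. The part of these genes in the members' values was not tested. DNMT3B, which sets new methylation, was detected on no HLY normoxia or SUDHL2 hypoxia array. DNMT1, which copies methylation after replication, differed by -0.07 ± 0.10 (SE) in the average response, with a limma adjusted p of 0.721. Of 23 tested, 1 was higher and 2 lower in the average response, against 3.32% and 5.45% of all tested probes. UHRF2 fell by 0.60 on the log2 scale, with a limma adjusted p of 0.00931, and MBD4, a repair glycosylase, fell by 0.74, with an adjusted p of 0.00719. UHRF1, which recruits DNMT1 to newly copied DNA, rose by 0.35, with an adjusted p of 0.0238. DNMT1 and UHRF1 were named after their values were seen. Of the MAGE genes expressed widely in adult tissue, MAGED1 read 1772, 2772 and 2039 in HLY hypoxia and 747, 732 and 595 in HLY normoxia. It read 1031, 636 and 536 in SUDHL2 hypoxia and 2134, 2054 and 1442 in SUDHL2 normoxia. MAGEH1 and TRO ran in the same directions as MAGED1 under the labels, and MAGEF1 and MAGED2 ran the other way. Under the HLY label 3 of the 8 tested genes of this list were higher and 2 lower, against 31.1% and 30.3% of all tested probes. Under the SUDHL2 label 4 were higher and 3 lower, against 30.8% and 31.0%. None of the 8 tested MAGE genes of that list was called in the average response, against 3.32% of all tested probes higher and 5.45% lower.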

How the data were processed

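Illumina HumanHT-12 v4 BeadChips were hybridized with RNA of HLY and SUDHL2 cells, 3 arrays in each of 4 groups, which were taken from the sample labels. Probe intensity was deposited by the authors raw, as extracted with GenomeStudio 2011.1, with no correction or scaling. Each value has a detection p-value, also deposited by the authors, which compares the probe with the array's negative controls. A deposited score gives log10 intensity standardized within each array, and scores recomputed from the intensities deviated by at most 0.0109.

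Intensities were corrected and quantile-normalized with neqc of limma 3.58.1 in R 4.3.3 (offset 16) and put on the log2 scale. The 16288 probes that at least 3 arrays detected (p under 0.01) were tested. The 4 group means were fitted with lmFit and eBayes, with Benjamini-Hochberg adjustment over all tested probes and a threshold of 0.05. The script was tested on simulated data. Probes were named by the array's annotation, and 127 of 130 members matched a RefSeq gene. Python 3.11.15 with pandas 2.3.3 was used for tables, and matplotlib 3.10.9 for figures.

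The members, lists and comparisons were chosen with earlier results of these data known. The named genes were, of each member gene on in at least 1 group, the brightest such probe, and of each other list up to 6 genes on in a group, by their spread between group means. Other probes and genes were named after their values were seen. Uncorrected intensities compress differences of dim probes toward background, and probes of near-identical copies can bind each other's RNA. Alternatives changed the background correction, the normalization, the detection threshold, the probes of a gene and the arrays used, took the deposited scores, or used the replicate number as a block.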

Additional observations from a re-analysis of the deposited data

Results flagged for a closer look

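In the lead probe of each of 8 families, the change with hypoxia ran in opposite directions under the 2 line labels on every array, and this difference was not tested because the families were chosen for it. The values below are the response under the HLY label minus that under the SUDHL2 label, on the log2 scale. GAGE4 had 17.9, PAGE5 had 16.8 and SSX1 had 13.5. MAGEB2 had 11, MAGEC1 had 10.9 and CTAG2 had 5.48. MAGEA1 had -10.3 and CT45A3 had -6.63. The values of GAGE4, PAGE5, SSX1, MAGEB2 and MAGEC1 are fitted and depend on the background correction, since no HLY normoxia or SUDHL2 hypoxia array detected these probes. With those groups at their bound, the difference was at least 15.5 for GAGE4, 14.3 for PAGE5, 10.9 for SSX1, 8.36 for MAGEB2 and 8.07 for MAGEC1. The B-cell markers CD79A and CD79B, the germ-cell gene DAZL and the adhesion genes EPCAM and PECAM1 also ran in opposite directions under the labels, and their part in these values was not tested.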

How the results depend on the processing

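The counts of members called by limma, or on in a group, stayed within 1.5 times of the reported one in 208 of 214 recomputed counts. Many of these were counts of 0 or 1 that did not change. The exceptions were these. Taking the brightest probe of each gene gave 10 members lower under the HLY label and 10 higher under the SUDHL2 label, against 21 probes each, since several probes of MAGEA and CT45 genes became 1. Between SUDHL2 hypoxia and HLY normoxia, leaving out 1 array at a time gave 0 to 2 members higher: a CTAG1A probe in 4 of these fits, joined by a MAGEA12 probe without SUDHL2 hypoxia replicate 1. Used as a replicate block, the replicate number gave 40 higher and 21 lower members under the HLY label and 1 higher in the average response, the same counts as without it. Same-numbered arrays did not deviate together (correlations from -0.36 to 0.227 over 18 pairs), so the numbers do not pair the arrays. At a detection p under 0.001, 47 members were on in HLY hypoxia, 20 in HLY normoxia, 19 in SUDHL2 hypoxia and 38 in SUDHL2 normoxia. Fitted differences depend on the background correction. GAGE4 in HLY hypoxia against HLY normoxia, which was not above background, had 6.88 on the log2 scale without it and 8.98 with it, neither of them a bound. With 3 arrays a group, the median half-width of a member's 95% interval between like groups was 0.36.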
